A study of Mus musculus with 21 samples.

Results

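The genes described here are 10 genes by which astrocytes and Bergmann glia of the cerebellum are recognised: Slc1a2, Slc1a3, Glul, Aqp4, Gja1, Aldh1l1, S100b, Fabp7, Gdf10 and Sox9. They were followed through every probe set annotated to one of these symbols alone, which gave 31 probe sets of the 45037 tested, or 10 of the 18193 genes with a probe set of their own. Slc1a3 and Gja1 had 6 probe sets each, Slc1a2 had 5, Aqp4 and Sox9 had 3 each, Glul, Aldh1l1 and S100b had 2 each, and Fabp7 and Gdf10 had 1 each. A further probe set, 1433095_at, was left out because it was annotated to Slc1a2 together with Gm13872. Bergmann glia are the radial astrocytes whose fibres cross the molecular layer, and they guide migrating granule cells and ensheath the synapses of Purkinje cells. Both kinds of glia take up synaptic glutamate, convert it to glutamine and are joined into networks by gap junctions. When tissue is injured astrocytes can become reactive, a state in which the filament protein Gfap is raised.

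Cystatin B, which the Cstb gene encodes, inhibits lysosomal cysteine proteases, and mice without it are a model of progressive myoclonus epilepsy of Unverricht-Lundborg type. Whole cerebella of Cstb-/- mice and of wild type littermates were measured at postnatal day 7 (P7, 4 arrays per genotype) and at P30 (3 arrays per genotype), and granule cell cultures were made from P5 pups of each genotype and grown for 2 days (3 Cstb-/- and 4 wild type arrays). All mice, of both genotypes, were of strain background 129SvJ. By the protocol the meninges were removed before dissociation, the medium held calf serum, and cytosine arabinoside was added to the cultures of both genotypes to keep glia from multiplying. The methods give the numbers hybridized as mice per genotype, and p-values measure the spread between these arrays. Sex was unbalanced at P7, where 3 of the 4 Cstb-/- arrays and 1 of the 4 wild type arrays were labelled male.

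The arrays were Affymetrix Mouse Genome 430 2.0 arrays, and the values are log2 signals that had been centred, so that within an experiment every probe set has a median of 0. Levels are thus not kept: differences between arrays of one experiment can be read, but not whether a glial or neuronal marker was strong or weak in a sample, so the labelled tissue could not be checked against the level of its markers. Both Cstb probe sets were lower on every Cstb-/- array than on every wild type array in all 3 experiments. Some arrays stood apart or went against their labels. P7 Cstb-/- array 5 and P7 wild type array 3 had the widest spread over all probe sets, with an SD of 0.23 and 0.22 against 0.12 to 0.17 on the other P7 arrays. In the cultures, Cstb-/- array 1 was labelled male but had the Y-linked gene Eif2s3y (1417210_at) at -2.33, and Cstb-/- array 2 was labelled female but had it at 1.78. Wild type culture 7, labelled male, had Xist (1427262_at) at -0.23, far above the -6.78 of wild type culture 4, also labelled male, and wild type culture 8, labelled female, had Eif2s3y at 0.00, above the -2.46 of wild type culture 5, also labelled female. At P30, Cstb-/- array 1 was labelled female, yet Xist and Eif2s3y did not separate it from the arrays labelled male. The count of calls among the 31 probe sets is given with and without these arrays.

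A probe set passed the test when the genotypes differed by a fold of 1.3 or more and its p from limma, adjusted by Benjamini-Hochberg across all 45037 probe sets, was below 0.05 (cerebella) or below 0.01 (cultures). Of the 31 probe sets, none passed at P7 or at P30, and 6 passed in the cultures, all of them higher in Cstb-/- cultures. Over all probe sets 0.00666% passed at P7, 0.144% at P30 and 2.54% in the cultures, of which 2.07% were higher. With labelled sex as a covariate the share over all probe sets at P7 was 2.46%, and still 0 of the 31 passed there. At an unadjusted p under 0.05 the 31 probe sets gave 6 at P7, 13 at P30 and 24 in the cultures, against 9.45%, 7.72% and 31.6% of all probe sets. The median difference of the 31, Cstb-/- minus wild type, was -0.07 at P7, 0.14 at P30 and 0.45 in the cultures on the log2 scale, beside medians of 0.01, -0.01 and -0.02 over all probe sets. In these bulk samples, more or fewer glia and more or less RNA per glial cell cannot be told apart.

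**Figure D1:**
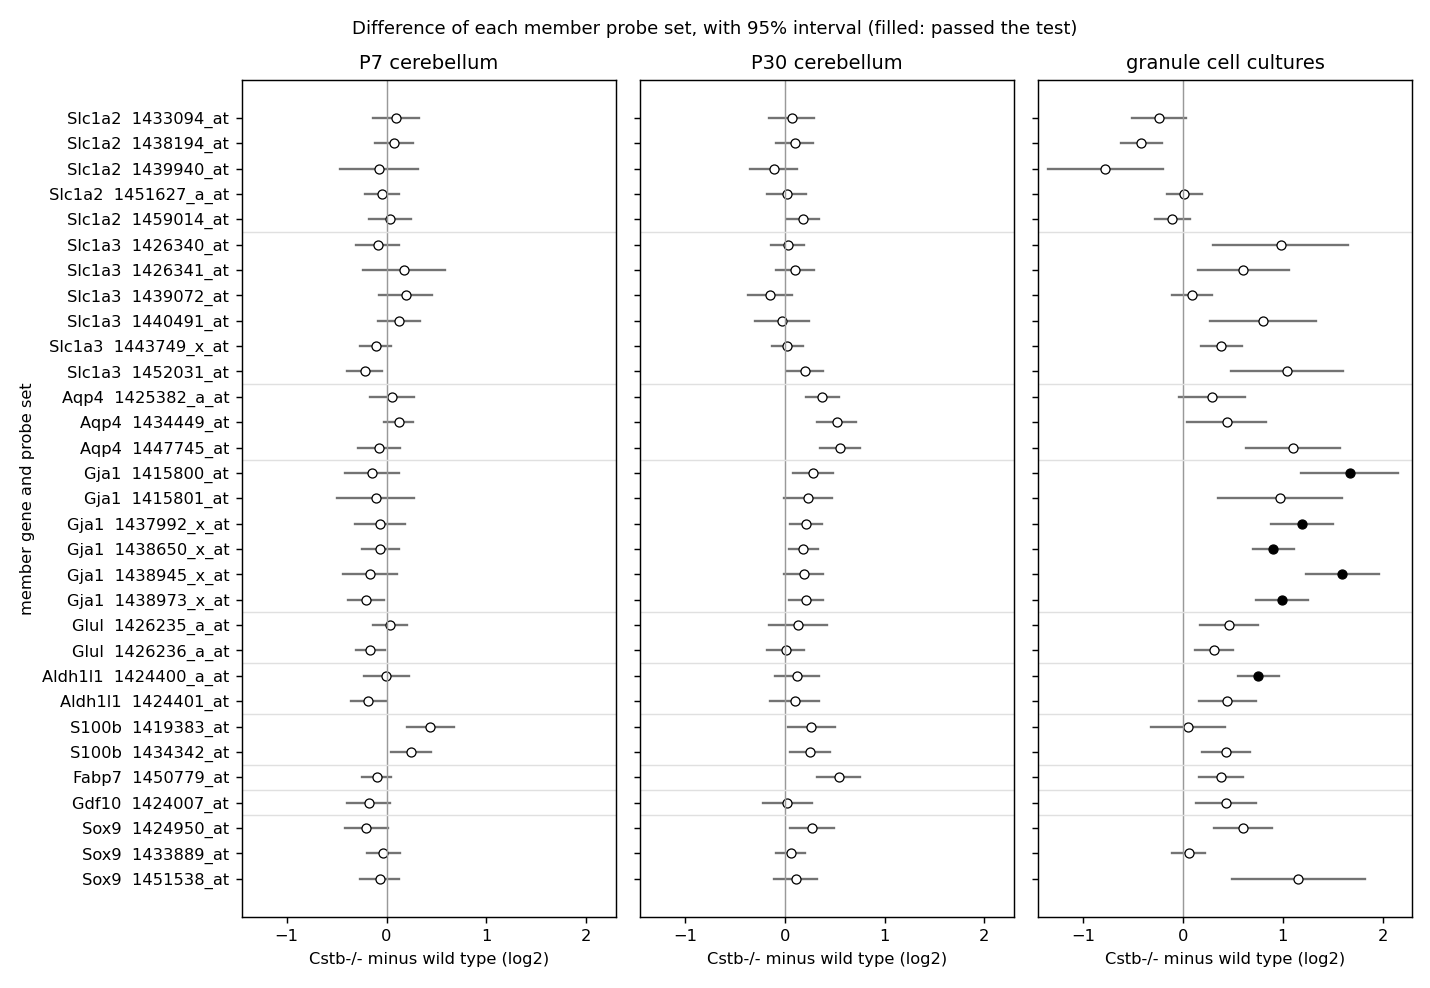
Difference between genotypes (Cstb-/- minus wild type, log2, horizontal axis) of each of the 31 probe sets (rows), with its 95% interval, at P7, at P30 and in culture. Filled points passed the test: none at P7 or P30, and 5 of Gja1 and 1 of Aldh1l1 in the cultures.

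In Cstb-/- granule cell cultures all 6 probe sets of Gja1 had higher values, and 5 of them passed, by 0.91 to 1.67 on the log2 scale. The gene encodes connexin 43, the main gap junction protein of astrocytes. Aldh1l1, a folate-metabolising dehydrogenase widely used as an astrocyte marker, had higher values in 2 of 2 probe sets, and 1 passed, by 0.76. Of the remaining genes, Slc1a3, Aqp4, Sox9, Glul, S100b, Fabp7 and Gdf10 had higher values without passing the test, and Slc1a2 had lower ones. In all, 27 of the 31 probe sets were higher and 4 were lower. The arrays of the genotypes did not overlap in 15 probe sets with Cstb-/- higher and in 2 with Cstb-/- lower, beside 13.4% and 9.33% of all probe sets.

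Gja1 had the largest difference of the 10 genes. Its probe set 1415800_at was at 1.08, 0.91 and 1.12 in Cstb-/- cultures, against 0.00, -0.74, -0.84 and -0.96 in wild type cultures, a difference of 1.67 (SE 0.21, 3.19-fold, adjusted p = 0.00361 from limma). The probe set 1438945_x_at was at 1.15, 1.14 and 1.13 in Cstb-/- cultures and at 0.00, -0.75, -0.51 and -0.57 in wild type cultures, a difference of 1.60 (SE 0.16, 3.03-fold, adjusted p = 0.00124 from limma). In both, every Cstb-/- culture lay at least 0.91 above the highest wild type culture, which was wild type array 4. Probe set 1437992_x_at had 0.77, 0.91 and 0.78 in Cstb-/- cultures, against 0.00, -0.55, -0.54 and -0.40 in wild type cultures (difference 1.19, SE 0.14, adjusted p = 0.00228 from limma). Probe set 1438973_x_at had 0.85, 0.61 and 0.74 in Cstb-/- cultures, against 0.00, -0.35, -0.28 and -0.41 in wild type cultures (difference 0.99, SE 0.11, adjusted p = 0.00214 from limma). Probe set 1438650_x_at had 0.71, 0.66 and 0.83 in Cstb-/- cultures, against 0.00, -0.20, -0.19 and -0.30 in wild type cultures (difference 0.91, SE 0.09, adjusted p = 0.00124 from limma). The genotypes were apart in these 3 as well. The exception was 1415801_at, with 0.00, 1.03 and 1.10 in Cstb-/- cultures and 0.00, -0.50, -0.05 and -0.50 in wild type cultures (difference 0.97, SE 0.27, adjusted p = 0.0573 from limma), where Cstb-/- array 1 was level with wild type array 4. The names of 4 of the 6 end in _x_at, which marks probes that may also bind other transcripts, and 1415800_at is the one that passed without that ending.

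**Figure D2:**
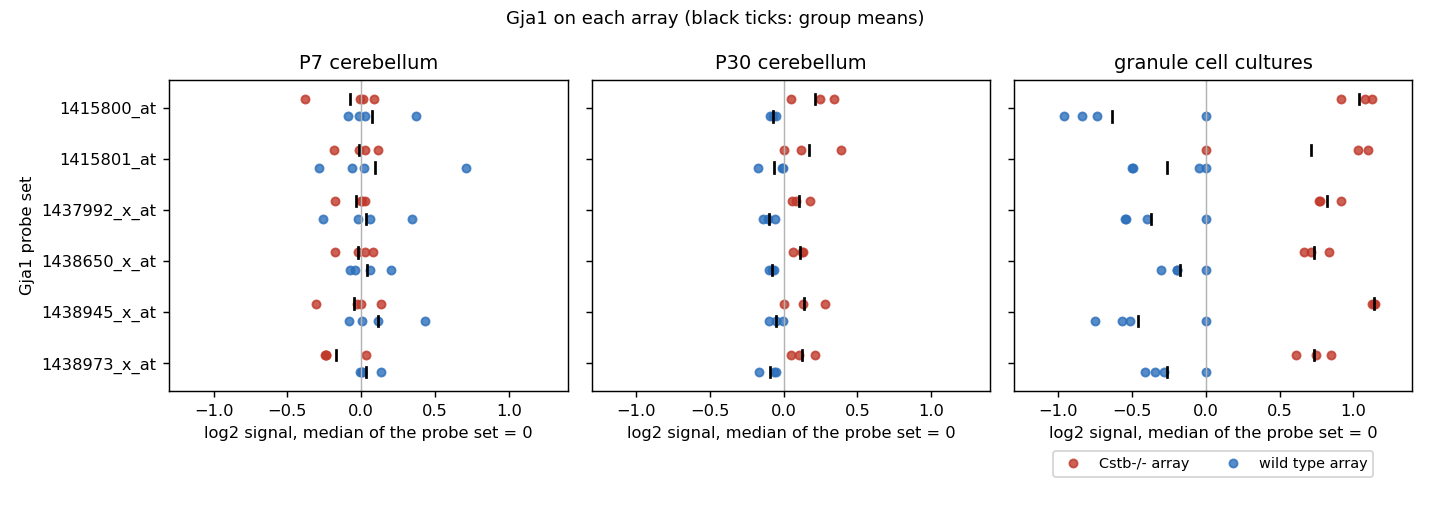
Gja1 on each array: log2 signal with the median of the probe set at 0 (horizontal axis) for its 6 probe sets (rows), with Cstb-/- arrays in red above wild type arrays in blue and group means as black ticks. In the cultures the genotypes are apart in 5 probe sets, at P30 they do not overlap in any, with mean differences of 0.19 to 0.28, and at P7 they overlap in all 6.

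Aldh1l1 was at 0.73, 0.58 and 0.61 in Cstb-/- cultures on probe set 1424400_a_at, against 0.00, -0.19, -0.02 and -0.26 in wild type cultures (difference 0.76, SE 0.09, 1.69-fold, adjusted p = 0.00277 from limma). Its other probe set, 1424401_at, had 0.48, 0.20 and 0.16 in Cstb-/- cultures and 0.00, -0.22, -0.40 and -0.05 in wild type cultures (difference 0.45, SE 0.12, adjusted p = 0.0558 from limma). Both probe sets separated the genotypes, and 1 of them passed. When the probe sets of a gene were averaged, the same 2 of the 10 genes passed, beside 4.56% of all genes. Gja1 had 1.22 (SE 0.13, adjusted p = 0.000509 from limma over genes) and Aldh1l1 had 0.60 (SE 0.09, adjusted p = 0.00264).

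The calls in the cultures depended on single arrays, while the differences moved little. Leaving out Cstb-/- array 3 left 1 probe set, Gja1 1438650_x_at, and leaving out Cstb-/- array 1 or wild type array 5, 7 or 8 left 2, both of Gja1, while the share over all probe sets was 0.671% to 1.01% in these 5 fits. Without Cstb-/- array 2 there were 10, and without Cstb-/- array 2 and wild type array 4 together, a choice made after seeing the data, 15, beside 5.96% and 6.91% of all probe sets. Over the fits with 1 culture left out, Gja1 1415800_at ranged from 1.56 to 1.88 (adjusted p from 0.000316 to 0.0247 from limma) and Aldh1l1 1424400_a_at from 0.71 to 0.80 (adjusted p from 0.00481 to 0.0166). Those arrays were also the ones that lay nearest to the other genotype: Cstb-/- array 2 was the lowest Cstb-/- array in 20 of the 31 probe sets, and wild type array 4 the highest wild type array in 21. Wild type array 4 was exactly at the median in as many. The centring itself puts the highest wild type array there wherever every Cstb-/- array lies above it. Averaged over the 10 genes, the cultures lay at 0.37, 0.22 and 0.40 (Cstb-/- arrays 1 to 3), against 0.01, -0.21, -0.20 and -0.21 (wild type arrays 4, 5, 7 and 8). Tied values, which 51.33% of all probe sets in the cultures have, occurred in 7 of the 31.

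**Figure D3:**
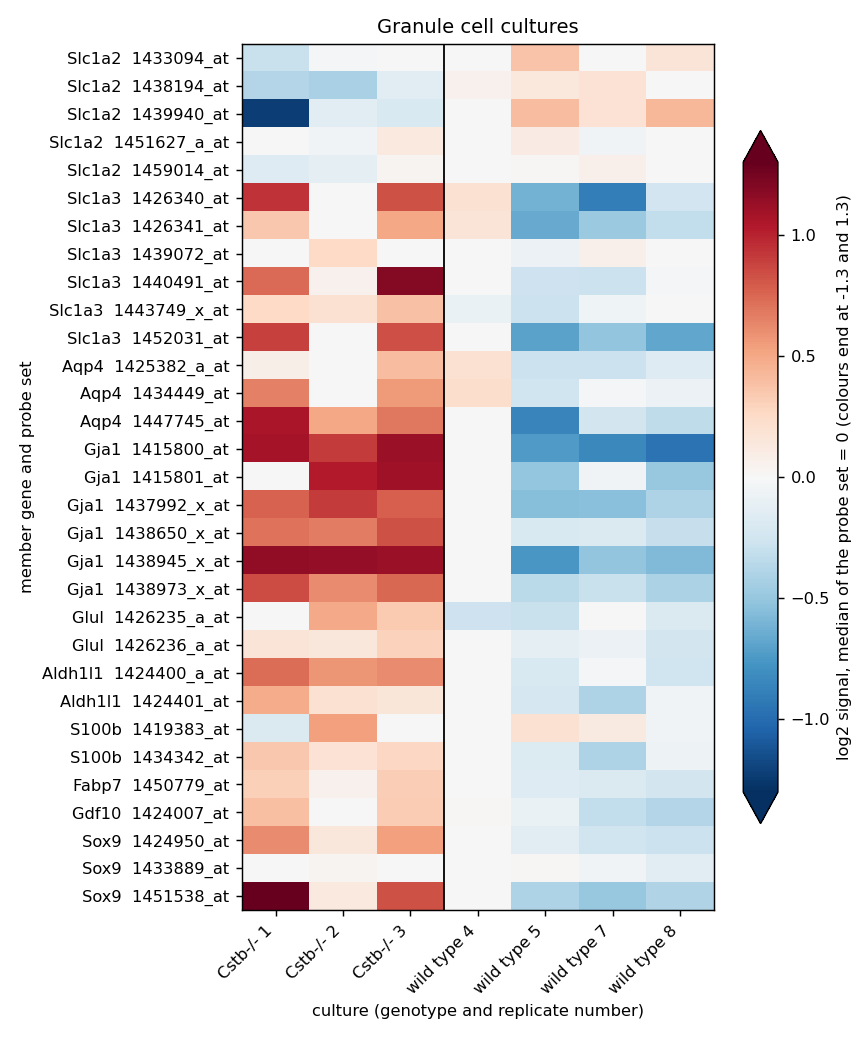
Log2 signal (colour, median of the probe set at 0) of the 31 probe sets (rows) on the 3 Cstb-/- and 4 wild type cultures (columns). The Gja1 rows are high in all Cstb-/- cultures but for 1415801_at on array 1, the Slc1a2 rows run the other way or stay near 0, and wild type array 4 is at or near 0 in most rows.

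Because Gja1 and Aldh1l1 were the genes that passed in the cultures, and Fabp7 the gene whose difference changed between the ages, the 250 bases before a transcript start are shown, from RefSeq on build GRCm38.p6, all on the plus strand. For Aldh1l1 the window reaches 25 bases past the start of the gene as annotated, and for Gja1 and Fabp7 it ends just before it. They are chr10:56377050-56377299 for Gja1, chr6:90550543-90550792 for Aldh1l1 and chr10:57784673-57784922 for Fabp7. Capitals mark matches, on either strand, to the AP-1 motif TGANTCA in Gja1 and to the CCAAT box, CCAAT or its reverse ATTGG, in the others.
Gja1: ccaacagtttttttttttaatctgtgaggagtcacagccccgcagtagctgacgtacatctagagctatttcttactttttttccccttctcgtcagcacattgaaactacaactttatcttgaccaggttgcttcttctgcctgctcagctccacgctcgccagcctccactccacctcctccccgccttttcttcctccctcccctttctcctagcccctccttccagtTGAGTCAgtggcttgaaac
Aldh1l1: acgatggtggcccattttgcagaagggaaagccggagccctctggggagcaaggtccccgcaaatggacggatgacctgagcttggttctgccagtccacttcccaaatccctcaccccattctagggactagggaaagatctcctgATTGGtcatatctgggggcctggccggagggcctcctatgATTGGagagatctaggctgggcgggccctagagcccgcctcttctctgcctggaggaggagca
Fabp7: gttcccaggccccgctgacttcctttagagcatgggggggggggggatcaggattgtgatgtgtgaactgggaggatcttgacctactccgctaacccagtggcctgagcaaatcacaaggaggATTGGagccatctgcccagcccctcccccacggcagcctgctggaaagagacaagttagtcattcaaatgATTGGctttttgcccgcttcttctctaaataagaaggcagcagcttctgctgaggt
Of the 10 genes, 8 had such a window. The AP-1 match in Gja1 began 19 bases before the start, and Gja1 was the 1 gene of the 8 with this motif, which 6.75% of 32851 windows of this length hold. A CCAAT box was present in 5 of the 8 (Slc1a3, Glul, Aldh1l1, S100b and Fabp7), against 33.8% of all windows. ACAAAG or its reverse CTTTGT, a motif of SOX proteins, was in 0 of the 8 and in 16.5% of all windows, and GGAATG or its reverse CATTCC, a motif of TEAD proteins, in 0 of the 8 and in 12.6%. A match describes letters and does not show binding.

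Among the genes of glutamate uptake, the pair of glial transporters differed in sign in the cultures. Slc1a3 (GLAST), the transporter typical of Bergmann glia, had higher values in 6 of 6 probe sets, from 0.09 to 1.04, with none passing. On 1452031_at it was at 0.88, 0.00 and 0.83 in Cstb-/- cultures, against 0.00, -0.70, -0.51 and -0.68 in wild type cultures (difference 1.04, SE 0.25, adjusted p = 0.0352 from limma). Here, as on 1426340_at and 1426341_at, wild type array 4 lay above Cstb-/- array 2 and the genotypes overlapped. They were apart on 1440491_at, with 0.74, 0.06 and 1.20 in Cstb-/- cultures and 0.00, -0.27, -0.27 and -0.02 in wild type cultures (difference 0.81, SE 0.23, adjusted p = 0.0635 from limma). They were also apart on 1443749_x_at, with 0.26, 0.20 and 0.38 in Cstb-/- cultures and -0.09, -0.28, -0.06 and 0.00 in wild type cultures (difference 0.39, SE 0.09, adjusted p = 0.0344 from limma). Slc1a2 (GLT-1), the transporter of mature astrocytes, had lower values in 4 of 5 probe sets, again with none passing. On 1438194_at it was at -0.39, -0.42 and -0.15 in Cstb-/- cultures, against 0.06, 0.14, 0.19 and 0.00 in wild type cultures (difference -0.42, SE 0.09, adjusted p = 0.0275 from limma). On 1439940_at it was at -1.22, -0.13 and -0.20 in Cstb-/- cultures, against 0.00, 0.40, 0.19 and 0.43 in wild type cultures (difference -0.78, SE 0.25, adjusted p = 0.0851 from limma), and Cstb-/- array 1 set much of that difference, which was -0.42 without it. Glul, the glutamine synthetase that disposes of the glutamate taken up, had 0.46 (adjusted p = 0.0565 from limma) and 0.31 (adjusted p = 0.0505), and the second of these probe sets, 1426236_a_at, separated the genotypes.

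Aqp4, the water channel of astrocyte endfeet, was at 1.06, 0.50 and 0.69 in Cstb-/- cultures on 1447745_at, against 0.00, -0.86, -0.24 and -0.33 in wild type cultures (difference 1.11, SE 0.21, adjusted p = 0.0158 from limma). With labelled sex as a covariate it passed (1.18, adjusted p = 0.00356 from limma), though Xist or Eif2s3y did not match 4 of these labels as described above. Its other probe sets had 0.44 and 0.29, with overlapping genotypes. Sox9, a transcription factor of glial fate, had 1.55, 0.12 and 0.83 in Cstb-/- cultures on 1451538_at, against 0.00, -0.41, -0.49 and -0.39 in wild type cultures (difference 1.16, SE 0.29, adjusted p = 0.0428 from limma). On 1424950_at Sox9 had 0.61, 0.15 and 0.54 in Cstb-/- cultures, against 0.00, -0.15, -0.26 and -0.28 in wild type cultures (difference 0.60, SE 0.13, adjusted p = 0.0231 from limma), and on 1433889_at it had a difference of 0.06. Cstb-/- array 2 was the lowest Cstb-/- array in all 3 Aqp4 probe sets and in Sox9 1451538_at and 1424950_at, and without it these Sox9 probe sets passed (adjusted p = 0.00608 and 0.00519 from limma).

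S100b, a calcium-binding protein of astrocytes, was at 0.35, 0.19 and 0.27 in Cstb-/- cultures on 1434342_at, against 0.00, -0.18, -0.40 and -0.06 in wild type cultures (difference 0.43, SE 0.11, adjusted p = 0.0393 from limma), while its other probe set had 0.05 with overlapping genotypes. Fabp7, the fatty acid-binding protein of radial glia and Bergmann glia, was at 0.31, 0.06 and 0.32 in Cstb-/- cultures, against 0.00, -0.17, -0.19 and -0.24 in wild type cultures (difference 0.38, SE 0.10, adjusted p = 0.0439 from limma). Gdf10, a secreted factor of the TGF-beta superfamily made by Bergmann glia, had 0.43 (SE 0.13, adjusted p = 0.0726 from limma), with Cstb-/- array 2 at 0.00 and wild type array 4 at 0.02. None of these genes passed in the cultures.

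Beyond the 10 genes, some probe sets of other astrocyte genes and of their pathways passed as higher in the Cstb-/- cultures, as did 2.07% of all probe sets. Of 67 probe sets for 34 other astrocyte and Bergmann glia genes, 45 had higher and 22 lower values, with a median of 0.27. In this list 7 passed as higher and none as lower. Among them were Id4, an inhibitor of helix-loop-helix factors (1.52 and 0.95), and Pla2g7, a secreted phospholipase (1.46). The stem cell factor Sox2 (1.33), the receptor phosphatase Ptprz1 (0.97), and, named after their values were seen, Mfge8 (0.91) and Aldoc (0.64) were the others. That count was 0 without Cstb-/- array 1 or 3 or wild type array 7 or 8, 1 without wild type array 5, 10 without wild type array 4, 14 without Cstb-/- array 2 and 17 without Cstb-/- array 2 and wild type array 4. Among partners of Aqp4 at the endfoot, Dmd, the dystrophin gene, rose in 2 probe sets (1.32 and 0.69) of 32 in that list, where 23 had higher and 9 lower values. Among 16 connexin and pannexin probe sets without Gja1, Gjc1 (connexin 45) rose by 0.77 and no other passed. Of these 16, 6 had higher and 10 lower values, with a median of -0.03. In the family of S100 and fatty acid-binding proteins 4 of 19 probe sets passed as higher, for S100a6 (2.24), S100a10 (1.46 and 1.25) and S100a4 (1.45). In this family 13 probe sets had higher and 6 lower values, with a median of 0.15. Glial transcription factors had 29 probe sets with higher and 21 with lower values, with a median of 0.05. Of these 50, 4 passed as higher and 1 as lower, Nfib, which fell by 0.84. The higher ones were Id4 and Sox2, which the astrocyte list also holds, and, named after its value was seen, Hes1 (0.58). Without Cstb-/- array 1 or 3 or wild type array 5, 7 or 8, no probe set of the Aqp4 partners or connexins passed and no glial transcription factor was called higher, and the S100 and fatty acid-binding proteins gave 1 or 2. None of 29 probe sets of glutamate and glutamine handling and none of 18 of folate metabolism passed. Gfap, the filament of reactive astrocytes, had 0.10, 0.26 and 0.76 over its 3 probe sets and did not pass. In the list of 44 reactive astrocyte probe sets 23 had higher and 21 lower values, with a median of 0.03. Those that passed were 5 higher ones, among them Emp1, a membrane protein (2.06), and the heat shock protein Hspb1 (1.64 and 1.36). Steap4, a metalloreductase, passed as lower, by 1.77. The 5 became 8 without wild type array 4, and Steap4 passed without wild type array 4 or 7 but not without any other single array.

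Markers of other cell types moved in the same cultures. Of 17 meningeal fibroblast probe sets 13 had higher values and 10 passed as higher, for 7 of 10 genes, with a median of 1.44. The mean of that list was 1.21 to 1.29 in Cstb-/- cultures and -0.22 to -0.01 in wild type cultures, and the collagen genes Col1a1, Col3a1 and Col1a2 had differences up to 3.59, 3.49 and 3.41. Of 24 probe sets of granule cell precursors and dividing cells 21 had higher values, with a median of 0.64. The list means were 0.47 to 0.60 in Cstb-/- cultures and -0.18 to -0.08 in wild type cultures. In this list 12 passed as higher. That count was 5 without Cstb-/- array 1, 4 without Cstb-/- array 3, and 6, 5 and 4 without wild type array 5, 7 and 8. Pericyte and smooth muscle genes gave 3 higher probe sets of 18 that passed (Tagln 2.39, Acta2 2.25, Pdgfrb 1.97). In that list 7 probe sets had higher and 11 lower values, with a median of -0.03. Oligodendrocyte precursor genes gave 3 higher probe sets of 11 that passed (Pdgfra 1.22 and 0.84, Olig2 1.00), with 9 higher, 2 lower and a median of 0.14. The oligodendrocyte precursor count was 1 without Cstb-/- array 1 or 3 or wild type array 5, 7 or 8. Granule neuron genes had a median of 0.01, with 12 of 23 probe sets higher and 11 lower, and 1 passed, as lower (Fat2, -0.62). Oligodendrocyte genes had a median of -0.32 (-0.52 without Cstb-/- array 2 and -0.21 without Cstb-/- array 3), and none of their 28 probe sets passed, nor did any of microglia, endothelium, choroid plexus, Purkinje cells or inhibitory interneurons, although 10 oligodendrocyte probe sets were called lower without Cstb-/- array 2. The mean of the 10 glial genes' 31 probe sets was 0.26 to 0.47 in Cstb-/- cultures and -0.25 to 0.02 in wild type cultures. The part of these other cell types in the glial result was not tested.

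**Figure D4:**
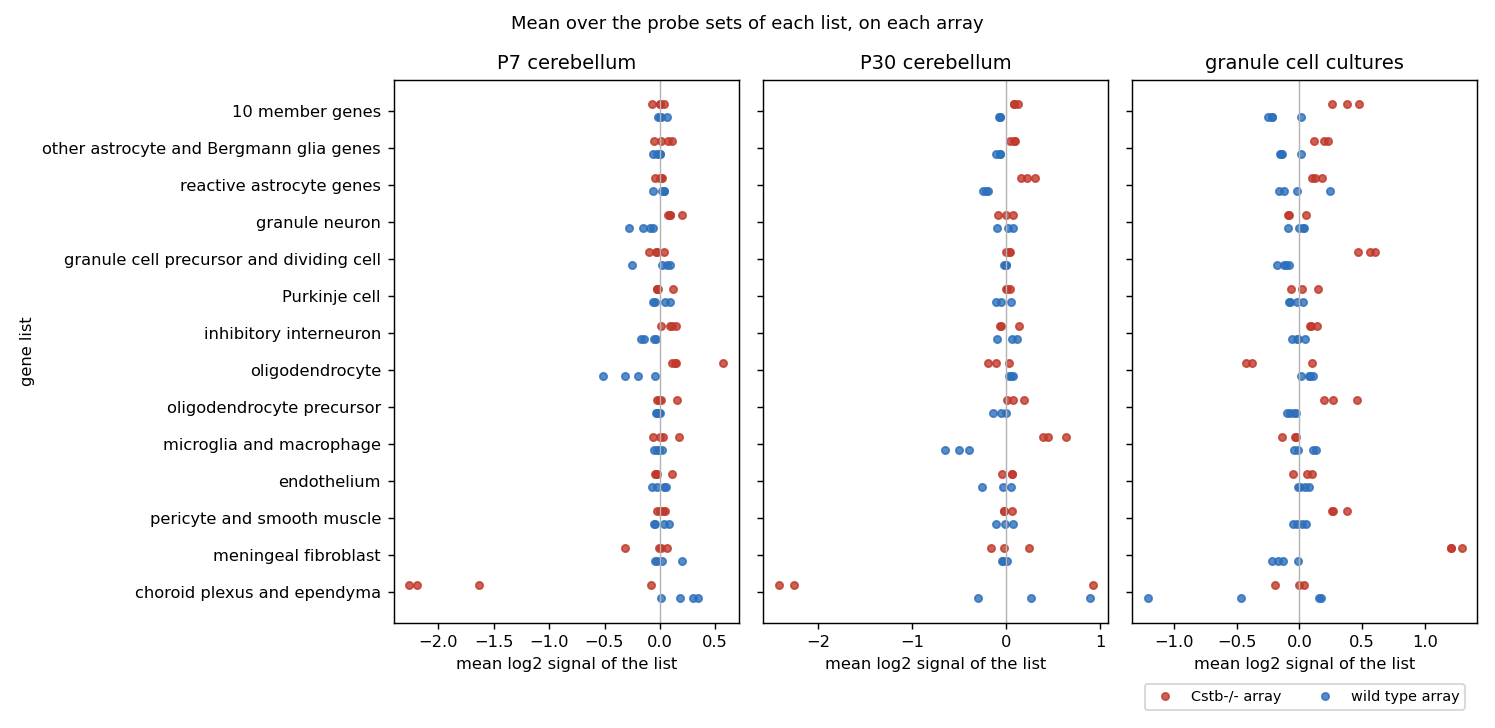
Mean log2 signal over the probe sets of each list (rows) on each array, with Cstb-/- arrays in red above wild type arrays in blue, at P7, at P30 and in culture (horizontal axes differ in range). The genotypes are apart for the 10 glial genes at P30 and in the cultures and overlap for them at P7. The same holds for the other astrocyte and Bergmann glia genes. Among further lists that are apart are choroid plexus, oligodendrocyte, granule neuron and inhibitory interneuron genes at P7. At P30 microglia, reactive astrocyte and oligodendrocyte precursor genes are among them. In the cultures they include meningeal fibroblast, dividing cell, pericyte, oligodendrocyte precursor and inhibitory interneuron genes.

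In the P30 cerebella, when Cstb-/- mice have symptoms, none of the 31 probe sets passed, although 28 had higher values in Cstb-/- cerebella and 3 had lower ones. In 15 of the 31, from 7 genes, all Cstb-/- arrays lay above all wild type arrays, beside 6.24% of all probe sets, and in none did they all lie below (6.25%). Aqp4 and Fabp7 had the largest differences, of 0.38 to 0.55. The smallest adjusted p among the 31 was 0.0724.

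Aqp4 was at 0.34, 0.32 and 0.16 in Cstb-/- cerebella on 1447745_at, against -0.41, -0.27 and -0.16 in wild type cerebella (difference 0.55, SE 0.09, 1.47-fold, adjusted p = 0.0724 from limma). On 1434449_at it was at 0.41, 0.15 and 0.29 in Cstb-/- cerebella, against -0.27, -0.30 and -0.15 in wild type cerebella (difference 0.52, SE 0.09, adjusted p = 0.0856 from limma), and on 1425382_a_at it had 0.38 (SE 0.07, adjusted p = 0.181). All 3 Aqp4 probe sets kept the genotypes apart without passing. With the 3 averaged, Aqp4 had 0.48 (SE 0.06, adjusted p = 0.0230 from limma over genes) and was the 1 gene of the 10 to pass, beside 0.291% of all genes. Fabp7 was at 0.25, 0.16 and 0.25 in Cstb-/- cerebella, against -0.29, -0.16 and -0.50 in wild type cerebella (difference 0.54, SE 0.09, 1.46-fold, adjusted p = 0.101 from limma). With array weights Aqp4 1447745_at, Aqp4 1434449_at and Fabp7 passed (adjusted p = 0.0134, 0.0140 and 0.0457 from limma), beside 0.502% of all probe sets. No member probe set passed without Cstb-/- array 1, the array with the disputed sex label, or without any other P30 array.

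The remaining genes differed less at P30. Gja1 was higher in 6 of 6 probe sets with mean differences of 0.19 to 0.28. Its arrays did not overlap in any of the 6, but the gap was small in some: on 1438945_x_at the lowest Cstb-/- array was at 0.00437 and the highest wild type array at -0.00437. S100b had 0.27 and 0.25, and Sox9 had 0.28, 0.11 and 0.06. Aldh1l1 had 0.12 and 0.10, Glul 0.14 and 0.01, and Gdf10 0.03. The transporters lay on both sides of 0, from -0.11 to 0.18 for Slc1a2 and from -0.15 to 0.20 for Slc1a3, with 1 probe set of each apart between the genotypes and higher in Cstb-/- cerebella.

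**Figure D5:**
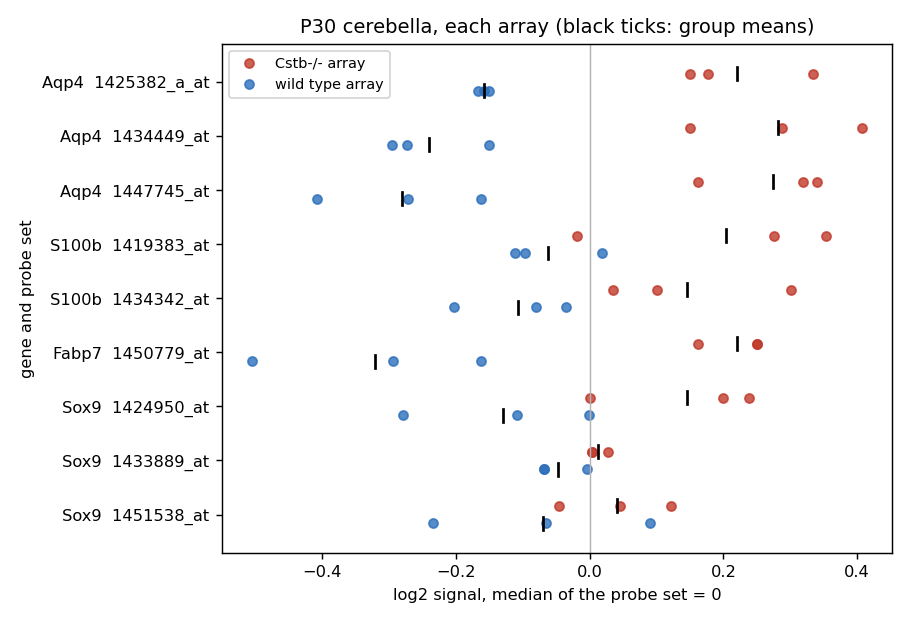
Aqp4, S100b, Fabp7 and Sox9 in the P30 cerebella: log2 signal on each array with the median of the probe set at 0 (horizontal axis), by probe set (rows), with Cstb-/- arrays in red above wild type arrays in blue and group means as black ticks. All Aqp4 and Fabp7 values are above 0 in Cstb-/- and below 0 in wild type arrays, whereas S100b 1419383_at and Sox9 1451538_at overlap.

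Against this background, Gfap rose strongly at P30. Its probe sets were at 0.98 to 1.22, 1.08 to 1.21 and 0.77 to 1.05 in Cstb-/- cerebella, against -1.16 to -0.98, -1.32 to -1.08 and -0.98 to -0.77 in wild type cerebella, with differences of 2.15, 2.36 and 1.75 (adjusted p = 1.44e-05, 7.17e-06 and 0.000112 from limma). Of 44 probe sets for 17 reactive astrocyte genes, 42 were higher and 7 passed, for Gfap, the hyaluronan receptor Cd44 (1.66 and 1.46), and, named after their values were seen, Osmr (0.99) and S1pr3 (0.79). That count was 4 without wild type array 1 or 2. The list of other astrocyte and Bergmann glia genes had 55 of 67 probe sets higher and a median of 0.14, the same as the 10 genes, with none passing. Microglia and macrophage genes had higher values in 18 of 19 probe sets, with a median of 0.64, and 11 passed, among them Tyrobp (2.20) and C1qb (up to 2.09). Their list mean was 0.39 to 0.64 in Cstb-/- and -0.65 to -0.40 in wild type cerebella, and the count was 5 without Cstb-/- array 1 or wild type array 1 and 6 without wild type array 2. Choroid plexus genes had a median of -0.82, with list means from -2.42 to 0.92 in Cstb-/- and from -0.30 to 0.90 in wild type cerebella. None of the 16 passed, and 6 were called lower without Cstb-/- array 2. That median was -1.58 without Cstb-/- array 2, -0.41 without Cstb-/- array 1, -0.35 without Cstb-/- array 3 and -0.37 without wild type array 3. The part of microglia and choroid plexus in the glial values was not tested.

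In the P7 cerebella, before symptoms, the 10 genes showed no common direction: 11 of the 31 probe sets had higher and 20 had lower values in Cstb-/- cerebella, and none passed. The genotypes did not overlap in 1 probe set with Cstb-/- higher and in 2 with Cstb-/- lower, beside 2.8% and 2.84% of all probe sets, so the 31 were close to the share over all probe sets. S100b was the gene with the largest difference. On 1419383_at it was at 0.18, 0.21, 0.48 and 0.05 in Cstb-/- cerebella, against -0.05, -0.43, -0.18 and -0.18 in wild type cerebella (difference 0.44, SE 0.11, 1.36-fold, adjusted p = 0.292 from limma). Its other probe set had 0.24 (SE 0.09, adjusted p = 0.474), with P7 Cstb-/- array 5 at -0.03, inside the wild type range. Neither passed, and 1419383_at did by the methods' t-test when only probe sets beyond the fold were adjusted for (adjusted p = 0.0471, limma 0.292), beside 0.451% of all probe sets.

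Other members at P7 leaned the other way. Gja1 was lower in 6 of 6 probe sets, by -0.21 to -0.06, and Sox9 in 3 of 3, by -0.20 to -0.03, all with overlapping genotypes. Gdf10 had -0.18, Fabp7 had -0.10, and Aldh1l1 had -0.18 on 1424401_at and no difference on its other probe set. The probe sets whose arrays were all lower in Cstb-/- cerebella were Slc1a3 1452031_at (-0.22, SE 0.08, adjusted p = 0.448 from limma) and Glul 1426236_a_at (-0.16, SE 0.07, adjusted p = 0.498). Aqp4 lay between -0.07 and 0.12 and Slc1a2 between -0.07 and 0.09. Wild type array 3 was the highest wild type array in 16 of the 31 probe sets, and with it and Cstb-/- array 5 left out, a choice made after seeing the data, the median of the 31 was 0.02 in place of -0.07.

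Gfap did not pass at P7 either, with 0.49, 0.50 and -0.06 and wild type array 3 at -1.49 and -1.16 in the first and second of these. Without wild type array 3 these were 0.12 (SE 0.11) and 0.24 (SE 0.14). Choroid plexus genes had a median of -1.36, with 11 of 16 probe sets lower on every Cstb-/- array, and list means of -2.26 to -0.08 in Cstb-/- and 0.01 to 0.34 in wild type cerebella. Oligodendrocyte genes had 28 of 28 probe sets higher, with a median of 0.49. Granule neuron genes had a median of 0.20 (0.12 without wild type array 3) and inhibitory interneuron genes one of 0.14 (0.21 without Cstb-/- array 1 and 0.22 without wild type array 4), with every Cstb-/- list mean above every wild type one. No probe set of these 4 lists passed with all arrays. Without Cstb-/- array 1, 9 choroid plexus probe sets passed as lower, and without wild type array 3, 1 inhibitory interneuron probe set passed as higher. With labelled sex as a covariate 4 choroid plexus probe sets passed as lower. In that fit 3 oligodendrocyte, 4 granule neuron and 1 inhibitory interneuron probe sets passed as higher. The part of these cells in the glial values was not tested. The list of other astrocyte and Bergmann glia genes had a median of 0.04, with 43 of 67 probe sets higher and none passing. With labelled sex as a covariate its median was -0.01 and 1 probe set passed as lower, as did 3 of the 50 probe sets of glial transcription factors.

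Whether a genotype difference itself changed between experiments was tested by contrasts in 1 fit over all groups, at an adjusted p under 0.05 with no fold. Both contrasts below use the same P7 arrays. The fit takes 1 estimate of the spread of a probe set for all groups, although the spread can differ between cultures and cerebella. For Slc1a3 1452031_at the contrast of cultures and P7 had an SE of 0.23, below the 0.25 of the cultures alone. Adjusted p-values of the contrasts with the cultures may thus be too small. From P7 to P30 the difference changed in Fabp7 alone of the 31 probe sets, by 0.64 (SE 0.12, adjusted p = 0.0325 from limma), and was higher, beside 0.124% of all probe sets, of which 0.115% were higher and 0.00888% lower. Fabp7 had -0.10 at P7 and 0.54 at P30. The call was lost in 12 of 14 fits with 1 array left out, all but those without P30 Cstb-/- array 2 or P30 wild type array 2, with contrasts from 0.55 to 0.72 and adjusted p from 0.0154 to 0.114. Aqp4 1447745_at had a contrast of 0.63 (SE 0.22, adjusted p = 0.472) and did not pass.

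Between the cultures and the P7 cerebella, the age nearest to that of the cultures, the difference changed in 19 of the 31 probe sets, beside 20.3% of all probe sets (13% higher and 7.32% lower). The contrast was higher in 18, which came from 8 of the 10 genes, and lower in 1, Slc1a2 1438194_at (-0.49, SE 0.12, adjusted p = 0.00834 from limma). All 6 Gja1 probe sets were among them, by 0.97 to 1.82, including 1415801_at (1.08, adjusted p = 0.0163). The steepest was 1415800_at, with a difference of 1.67 in the cultures and -0.15 at P7 (contrast 1.82, SE 0.23, adjusted p = 1.16e-05). For S100b neither probe set passed this contrast, with -0.39 and 0.19. With 1 array left out the count was 17 to 22, while the share over all probe sets ranged from 13.4% to 27.9%.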

How the data were processed

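Total RNA of mouse cerebella and granule cell cultures was hybridized to Affymetrix Mouse Genome 430 2.0 arrays. The deposited values are log2 signals: the authors applied RMA in GeneSpring GX (version not given in the sources used here), which corrects background, normalizes by quantiles and summarizes probes, and then set each gene relative to its median, as the values show for each experiment apart. Levels are therefore not kept, and no filter on low signals could be applied. Of 45101 probe sets 64 controls were left out; 34945 of the rest had 1 gene symbol, 932 several and 9160 none. The files hold 0 columns of unmapped samples.

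Genotypes were compared within each experiment with limma (version 3.58.1 in R 4.3.3, lmFit and eBayes, 2-sided), with Benjamini-Hochberg correction over 45037 probe sets and the thresholds of fold and adjusted p from the methods. Intervals are at 95%. By the methods, 1 array of each genotype at P7 and 1 Cstb-/- culture were left out of the final analysis. The methods say so next to a principal component check of whether samples of a genotype grouped together. Arrays that were left out were not analysed here. The cultures, with 3 Cstb-/- and 4 wild type arrays, were also fewer than the methods give. Whether the choice of arrays widened the separation of the genotypes was not tested. Lists of 250 entries, 230 matched to a gene on the array and 1 of them through a synonym, were counted over probe sets with that symbol alone. Per-array values are given for probe sets that passed in any experiment, or that separated the genotypes with a fold of 1.3 or more, and from the lists at most 4 called probe sets each and Gfap. The members and lists were chosen with earlier results of these data known. Alternatives were robust variances, array weights, 1 fit over all groups, correction over probe sets with 1 symbol, probe sets for several transcripts left out, gene means, the methods' t-test, no fold, labelled sex as a covariate, the replicate block and each array left out. The procedure was tested on simulated data. The number of arrays limits the precision. Tables were handled in Python 3.11.15 with pandas 2.3.3, and figures drawn with matplotlib 3.10.9.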

Additional observations from a re-analysis of the deposited data

Results flagged for a closer look

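Single arrays stood far from the others of their group in 6 places among 93 groups of 4 arrays examined, where chance flags about 1 in 20 groups, a share close to this one. All 6 were at P7. The P30 groups and the Cstb-/- cultures, with 3 arrays each, were not examined. For Gja1, Cstb-/- array 5 was at -0.177 on 1437992_x_at, with the other Cstb-/- arrays from -0.00475 to 0.0257. On Gja1 1438973_x_at Cstb-/- array 2 was at 0.0338, with the others near -0.24, and wild type array 4 was at 0.135, with the others between -0.00526 and 0.00526. For the transporters, wild type array 3 was at 0.756 on Slc1a2 1439940_at, above -0.07 to 0.02 in the others, and at -0.881 on Slc1a3 1426341_at, below 0.00351 to 0.106. On Slc1a3 1440491_at wild type array 4 was at -0.197, with the others between -0.00332 and 0.0185.

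The genotype difference changed between experiments, by the contrast across all groups, in 20 instances. From P7 to P30 it changed for Fabp7, by 0.64. From the P7 cerebella to the cultures it changed for Gja1 by 1.82 (1415800_at), 1.08 (1415801_at), 1.26 (1437992_x_at), 0.97 (1438650_x_at), 1.76 (1438945_x_at) and 1.20 (1438973_x_at). For Slc1a3 the change was 1.07 (1426340_at), 0.68 (1440491_at), 0.50 (1443749_x_at) and 1.26 (1452031_at), and for Slc1a2 1438194_at it was -0.49. It was 0.48 for Glul 1426236_a_at, 1.18 for Aqp4 1447745_at, 0.76 and 0.63 for the Aldh1l1 probe sets 1424400_a_at and 1424401_at, 0.48 for Fabp7, 0.61 for Gdf10, and 0.81 and 1.23 for the Sox9 probe sets 1424950_at and 1451538_at.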

How the results depend on the processing

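Signs were compared across the alternative runs only for glial probe sets that passed, or that separated the genotypes past the fold. None of these differences changed sign. At P7 the median of all glial probe sets did change sign when the arrays with the widest spread were left out. The P7 median of the other astrocyte and Bergmann glia genes changed sign with labelled sex as a covariate. In the cultures the 6 probe sets that passed became 10 with array weights, 19 with 1 fit over all 6 groups and 15 without Cstb-/- array 2 and wild type array 4 (chosen after seeing the data), while the share over all probe sets went up as well, to 6.28%, 12.7% and 6.91% in place of 2.54%. They became 1 without probe sets that can match several transcripts, which removes all but Gja1 1415800_at of the 6, beside 2.03% of the probe sets kept. By the methods' t-test they became 0 when adjusted over all probe sets, beside 0.0711% of all. Adjusted over the probe sets past the fold, 5 passed by that t-test, beside 1.39% of all. With 1 array left out they ranged from 1 to 10, beside 0.671% to 5.96% of all probe sets. At P30 the count of 0 became 3 with array weights, 3 by that t-test adjusted the same way, and 1 with 1 fit over all 6 groups. The share over all probe sets was 0.502%, 0.466% and 0.238% in these runs, in place of 0.144%. With gene means 1 gene, Aqp4, passed at P30 in place of 0, beside 0.291% of all genes. At P7 the count of 0 became 1 by that t-test adjusted over the probe sets past the fold, beside 0.451% of all probe sets in place of 0.00666%. With 1 array left out it stayed at 0 at both ages. The single Fabp7 call between P7 and P30 ranged from 0 to 1, beside 0.0844% to 0.175% of all probe sets. The 19 calls between P7 and the cultures ranged from 17 to 22, beside 13.4% to 27.9%. The cause of these shifts was not tested, apart from the probe sets removed. With the replicate number as a block 0 probe sets passed at P7 and 0 at P30. Deviations of same-numbered arrays had correlations of 0.01, 0.05 and 0.17 at P7 and -0.04, -0.18 and -0.03 at P30. Differently numbered arrays had -0.21 to 0.28 at P7 and -0.08 to 0.12 at P30. With so few arrays these values cannot show whether the samples were paired, and the cultures shared no number. The filter on low values was not run, since levels are not kept.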
